A study of Homo sapiens with 7 samples.

Results

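Chromatin precipitated with an antibody against the kinase VRK1 was set against unprecipitated input DNA, both from HT1080 cells, a human fibrosarcoma line, transfected with a non-targeting small interfering RNA (siControl). The regions compared were those that the submitters called as peaks in 5 other libraries of the series, so that no region was called from VRK1 or siControl input reads. These libraries were histone H2A phosphorylated at threonine 120 (pT120) and ubiquitylated H2A (ubK119), each after transfection of small interfering RNA against VRK1 (siVRK1) and of siControl, and the input DNA of siVRK1 cells. Regions were kept on chromosomes 1 to 22 where each of the inputs had at most 100 reads, a limit through which the siControl input did bear on the choice. Of 113406 regions in the 5 lists, 109352 met these limits, and where they overlapped the longest was kept, which left 93309 distinct regions covering 25.5 Mb; the 7 lists of the series hold 148917 peaks. VRK1 was profiled in siControl cells only, with 1 library, and the siControl input is 1 library as well. No difference below therefore has a replicate check, each comparison is one of libraries, and no p-value is given.

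VRK1 is a serine/threonine kinase of the nucleus that binds chromatin, and histones, p53 and the chromatin protein BAF are among its known substrates. The title of the series ties H2A phosphorylation at this threonine to oncogenic transformation and cyclin D1. The lysine recognised by the ubK119 antibody neighbours this threonine, and its ubiquitin is placed by Polycomb repressive complexes. A chromatin protein that sits at defined sites gives more reads there than input DNA does, whereas a protein spread evenly, or an antibody with little specific yield, gives a profile close to input. Levels are given as RPM, the reads of a region scaled to a common library total, so a ratio of 1 means that a region took the same share of both libraries.

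The VRK1 library had 32040499 reads and the siControl input 26893399, and 1 read was worth 0.0312 and 0.0372 RPM. The siVRK1 input, used as another denominator, had 33259276 reads. The 95% intervals given cover counting error alone: without molecular identifiers, reads amplified by PCR are not independent molecules. Most regions were short and thinly covered: the median distinct region was 222 bp long and held 5 VRK1 reads and 4 siControl input reads. VRK1 had 0 reads in 4469 regions and the input in 4197, and both had 0 in 688. The regions together took 2.14% of the VRK1 library and 2.04% of the siControl input. The files name no genes and their build is hg19, so regions are given by position, as chromosome, start and end.

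Summed over the distinct regions, the ratio of VRK1 to siControl input was 1.05 (1.04 to 1.05), and that to siVRK1 input was 0.854 (0.851 to 0.857). The lower value includes the regions chosen as peaks of the siVRK1 input, and over the antibody lists alone the ratio to that input was 0.998 (0.995 to 1.002). The ratio differed between the lists. Regions called with the ubK119 antibody in siVRK1 cells held the highest level relative to input, with 5491 RPM of VRK1 against 4323 RPM of siControl input, a ratio of 1.27 (1.26 to 1.28). Those called with the pT120 antibody in siVRK1 cells lay below input, with 7375 RPM of VRK1 and 8522 RPM of siControl input, a ratio of 0.865 (0.860 to 0.870). In between, the siControl pT120 regions had a ratio of 1.09 (1.08 to 1.10) and the siControl ubK119 regions 1.08 (1.07 to 1.09). The regions called in siVRK1 input DNA, which no antibody chose, had a ratio of 1.07 (1.06 to 1.08), close to that of the siControl antibody lists. These excesses depended on the limit on input reads: with regions of over 100 input reads included, the ratio was 0.926 in siControl pT120 regions, 0.964 in siControl ubK119 regions, 0.962 in siVRK1 input regions and 0.990 in distinct regions, and in siVRK1 ubK119 regions its interval was 0.996 to 1.004. Regions with 91 to 100 reads in the higher input had a ratio of 0.997, and those with 101 to 110 reads, just outside the limit, 0.980.

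The inputs also differed from each other between the lists. The siVRK1 input stood at 1.22 times (1.21 to 1.23) the siControl input in siVRK1 ubK119 regions, 1.07 (1.06 to 1.08) in siControl pT120 regions, 1.06 (1.05 to 1.06) in siControl ubK119 regions and 0.902 (0.897 to 0.907) in siVRK1 pT120 regions. Both sets of ratios share the siControl input as denominator. Over the siVRK1 input, VRK1 stood at 1.04 (1.03 to 1.05), 1.02 (1.01 to 1.03), 1.02 (1.02 to 1.03) and 0.960 (0.954 to 0.965) in the same order of lists. Each of these values keeps the direction found over the siControl input, yet they lie between 0.960 and 1.04, against 0.865 and 1.27 over the siControl input. In siVRK1 input regions the ratio over the siVRK1 input was 0.654, a value that the choice of those regions favours. Over the 78379 distinct regions of the 4 antibody lists alone, VRK1 stood at 1.03 (1.03 to 1.04) times the siControl input and 0.998 (0.995 to 1.002) times the siVRK1 input.

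**Figure D1:**
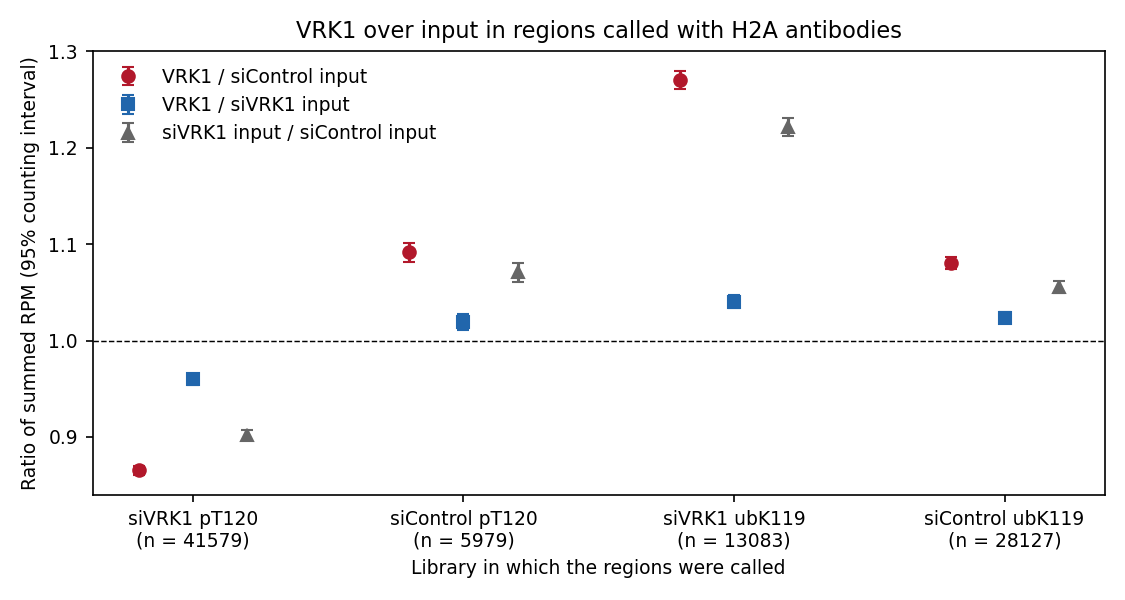
Ratio of summed RPM (y axis) in regions called in each of the 4 H2A antibody libraries (x axis, n regions): VRK1 over siControl input (red circles), VRK1 over siVRK1 input (blue squares) and siVRK1 input over siControl input (grey triangles), with 95% counting intervals, mostly smaller than the symbols. The red circles span 0.865 to 1.27, the blue squares 0.960 to 1.04 and the grey triangles 0.902 to 1.22.

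Single regions were next asked whether VRK1 stood well above or below input. A region was tested when both libraries together had at least 20 reads there, and called when the RPM differed at least 2-fold, with 0 reads set to 3. Of the 93309 distinct regions, 12801 could be tested. VRK1 was at least 2-fold higher in 1437 of them (11.2%, 10.7 to 11.8) and at least 2-fold lower in 512 (4.0%, 3.67 to 4.35). The median tested region had a ratio of 1.07, with a 10th percentile of 0.619 and a 90th percentile of 2.10. The regions of siVRK1 ubK119 had the highest share of higher calls, 687 of 4213 (16.3%), with 84 lower (1.99%). By contrast, siVRK1 pT120 regions had more lower calls than higher ones, 192 higher of 4263 (4.50%) and 251 lower (5.89%). The siControl pT120 regions had 309 higher of 2900 (10.7%) and 99 lower (3.41%), siControl ubK119 regions 602 of 5858 (10.3%) and 258 (4.40%), and siVRK1 input regions 613 of 6867 (8.93%) and 262 (3.82%). The regions chosen with no antibody thus had shares within the range of the antibody lists.

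The same count between the inputs gives the background of such calls. In the distinct regions of the antibody lists, VRK1 was at least 2-fold above the siControl input in 1127 of 9816 (11.5%) and below it in 402 (4.10%). There the siVRK1 input was itself at least 2-fold above the siControl input in 940 of 10015 regions (9.39%) and below it in 350 (3.49%). VRK1 over the siVRK1 input gave 608 of 12916 (4.71%) higher and 508 (3.93%) lower, a nearly even split. By list, the siVRK1 input was higher than the siControl input in 13.3% of siVRK1 ubK119 regions and lower in 1.93%, in 8.18% and 3.11% of siControl pT120 regions, in 7.59% and 3.44% of siControl ubK119 regions, and in 2.94% and 5.04% of siVRK1 pT120 regions. VRK1 over the siVRK1 input was higher in 4.87% and lower in 3.11% of siVRK1 ubK119 regions, in 4.57% and 2.97% of siControl pT120 regions, in 4.64% and 4.05% of siControl ubK119 regions, and in 3.30% and 3.70% of siVRK1 pT120 regions. Higher calls between the inputs were thus somewhat fewer than those of VRK1 over the siControl input. They were more than those of VRK1 over the siVRK1 input, except in siVRK1 pT120 regions, at 2.94% against 3.30%.

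**Figure D2:**
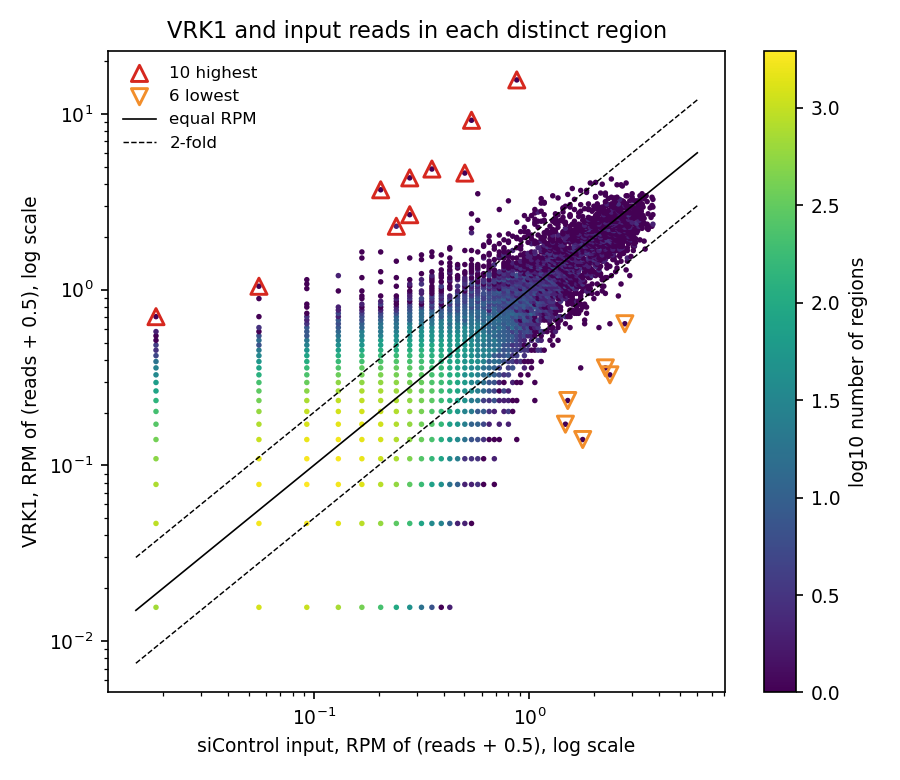
VRK1 level (y axis) against siControl input level (x axis) in the distinct regions, each as RPM of reads plus 0.5 on a log scale; colour gives the number of regions with the same pair of read numbers, the solid line equal RPM and the dashed lines a 2-fold difference. Most regions lie in a cloud around the solid line, while the 10 highest (red triangles) and 6 lowest (orange triangles) regions stand clear of it.

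A smaller set stood above both inputs. With at least 20 reads for VRK1 together with each input, 8997 distinct regions of the antibody lists could be tested. VRK1 was at least 2-fold above both inputs in 262 (2.91%, 2.57 to 3.28) and at least 2-fold below both in 80 (0.889%, 0.706 to 1.11). These calls ask for more than a call over 1 input, so the shares are not on the same scale as those above. A high VRK1 count meets both read minimums and enters both ratios, whereas a region low in VRK1 needs many reads in each input. The choice of tested regions thus favours calls above over calls below, here and in the shares by list and by chromosome. No background count was made for these calls. By list, the shares above and below both inputs were 3.25% and 0.517% in siVRK1 ubK119 regions, 2.75% and 0.715% in siControl pT120 regions, 2.72% and 1.05% in siControl ubK119 regions, and 1.77% and 1.20% in siVRK1 pT120 regions. At 3-fold 72 regions were above both (0.800%) and 18 below, at 5-fold 26 above (0.289%) and 5 below, and at 10-fold 8 above (0.0889%) and 1 below. Of the 262 regions 163 were called in 1 antibody list, a larger share than the 4618 of the 8997 tested. In all 4 lists were 32 of them, beside 816 of those tested. At 10-fold 7 of the 8 were called in all 4.

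The 262 regions took 222 RPM of VRK1, against 59.0 RPM of siControl input and 59.0 RPM of siVRK1 input. Their median length was 341 bp, shorter than the 411 bp of all tested regions. VRK1 peaks covered part of 168 of them (64.1%), against 4498 of the 8997 tested (49.99%). Only 14 (5.34%) touched a siControl input peak and 12 (4.58%) a siVRK1 input peak, where 44.3% and 49.3% of tested regions did; regions with a low input were favoured by the call itself. Of the 262, 141 (53.8%) were in the siVRK1 ubK119 list, which held 45.1% of tested regions, and 69 (26.3%) in the siVRK1 pT120 list, which held 41.9%. The siControl lists held shares close to those of tested regions, 31.3% against 30.2% for pT120 and 57.6% against 61.4% for ubK119. In the same regions VRK1 stood at 1.21 times (1.17 to 1.26) the siControl pT120 level and 1.62 times (1.56 to 1.67) the siControl ubK119 level, an excess that ranking on VRK1 favours.

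Shares of such regions varied between chromosomes. Chromosome 19 had 13 of 161 tested regions at least 2-fold above both inputs (8.07%, 4.37 to 13.4). Chromosome 14 had 7 of 100 (7%, 2.86 to 13.9), chromosome 11 had 16 of 236 (6.78%, 3.92 to 10.8) and chromosome 12 had 12 of 180 (6.67%, 3.49 to 11.4). These intervals overlap those of most other chromosomes. Chromosome 18, which supplied 2768 tested regions, had 17 (0.614%, 0.358 to 0.982). Its regions were also the most deeply covered, at 1.29 RPM per kb of VRK1 and 1.36 RPM per kb of siControl input. Chromosome 15 had 4 of 17, an interval of 6.81 to 49.9%, and chromosome 22 had 0 of 24, which allows up to 14.2%.

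The 10 regions highest over siControl input, ranked by the lower bound of the ratio and so given as a description, were led by a pair on chromosome 1. The region chr1:165721509-165721916 had 15.6 RPM of VRK1, against 0.855 RPM of siControl input (23 reads) and 0.180 RPM of siVRK1 input (6 reads), a ratio over siControl input of 18.2 (12.0 to 29.0). A siControl input peak covers 49.4% of it and a VRK1 peak 53.3%. The region chr1:191583266-191583484 had 294 reads of VRK1, 14 of siControl input and 7 of siVRK1 input, a ratio of 17.6 (10.3 to 32.6). A siControl input peak covers 91.7% of this region and a VRK1 peak 94.0%. The pair had the highest VRK1 levels of the 10, at 15.6 and 9.18 RPM, while the others lie at 4.84 RPM or less.

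The next regions had fewer reads and similar ratios. In chr12:127861063-127861423 VRK1 had 118 reads and both inputs had 5, a ratio of 19.8 (8.25 to 62.1) over siControl input. In chr16:3124470-3124873 VRK1 had 138 reads, the siControl input 7 and the siVRK1 input 10, a ratio of 16.5 (7.82 to 41.9). The third region of chromosome 1, chr1:205204806-205205198, had 155, 9 and 6 reads and a ratio of 14.5 (7.42 to 32.2). On chromosome 13, chr13:34238692-34239080 had 147, 13 and 14 reads and a ratio of 9.49 (5.38 to 18.2). A siControl input peak covers 93.8% of it and a VRK1 peak 94.6%. All 6 regions named so far were called in all 4 antibody lists, and in each of them the ratio over the siVRK1 input had a lower bound of at least 6.29.

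The remaining 4 of the 10 rest on few input reads or on 1 of the inputs. In chr21:20161071-20161288 VRK1 had 33 reads and each input 1, a ratio of 27.7 with an interval of 4.64 to 1127. In chr16:17421449-17421650 VRK1 had 22 reads, the siControl input 0 and the siVRK1 input 5, which is at least 6.16-fold higher than a floor of 3 reads in the siControl input. The region chr2:133015013-133015818 had 85 VRK1 reads and 7 of siControl input, a ratio of 10.2 (4.74 to 26.1), but 61 reads of siVRK1 input, over which the ratio was 1.45 (1.03 to 2.04). Likewise chr17:31149416-31150039 had 73 VRK1 reads and 6 of siControl input, a ratio of 10.2 (4.47 to 28.7), but 62 of siVRK1 input, a ratio of 1.22 (0.859 to 1.74). Among regions called in siVRK1 input, chr17:4306814-4307073 also ranked high, with 37 VRK1 reads, 2 of siControl input and 15 of siVRK1 input, and so did chr9:66458143-66458358, with 20, 0 and 14. In the regions of chromosomes 2 and 17 named first the siVRK1 input also stood well above the siControl input. The levels were 1.83 against 0.260 RPM on chromosome 2 and 1.86 against 0.223 RPM on chromosome 17. Both regions overlap peaks of the siVRK1 input, and a low siControl input raises their rank. The choice of regions thus favours this gap.

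All 10 regions were called in both siControl H2A antibody lists, so that high levels of these antibodies there follow from the choice of regions and are given as a description. In the leading region of chromosome 1, pT120 of siControl cells had 384 reads (18.6 RPM) and ubK119 of siControl cells 189 (4.67 RPM), beside 15.6 RPM of VRK1. The ratio of VRK1 to pT120 there was 0.839 (0.733 to 0.961). Among the 10 regions this ratio lay between 0.657 and 1.18, and its interval included 1 in all but 2, the leading region and chr12:127861063-127861423, at 0.657 (0.504 to 0.856). Reads of the siVRK1 libraries were there too: in the leading region ubK119 of siVRK1 cells had 486 reads (16.2 RPM) and pT120 of siVRK1 cells 160 (4.44 RPM). A level near that of VRK1 was thus not particular to siControl pT120. In chr12:127861063-127861423 VRK1 had 3.68 RPM, siControl pT120 5.61 and siVRK1 ubK119 4.14. In chr1:205204806-205205198 siControl pT120 was the nearer, at 4.84, 5.37 and 5.80 RPM in the same order. Over the shared siControl input, pT120 stood at 21.7 times (14.3 to 34.7) and ubK119 at 5.46 times (3.53 to 8.83) in the leading region, against 18.2 times for VRK1.

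**Figure D3:**
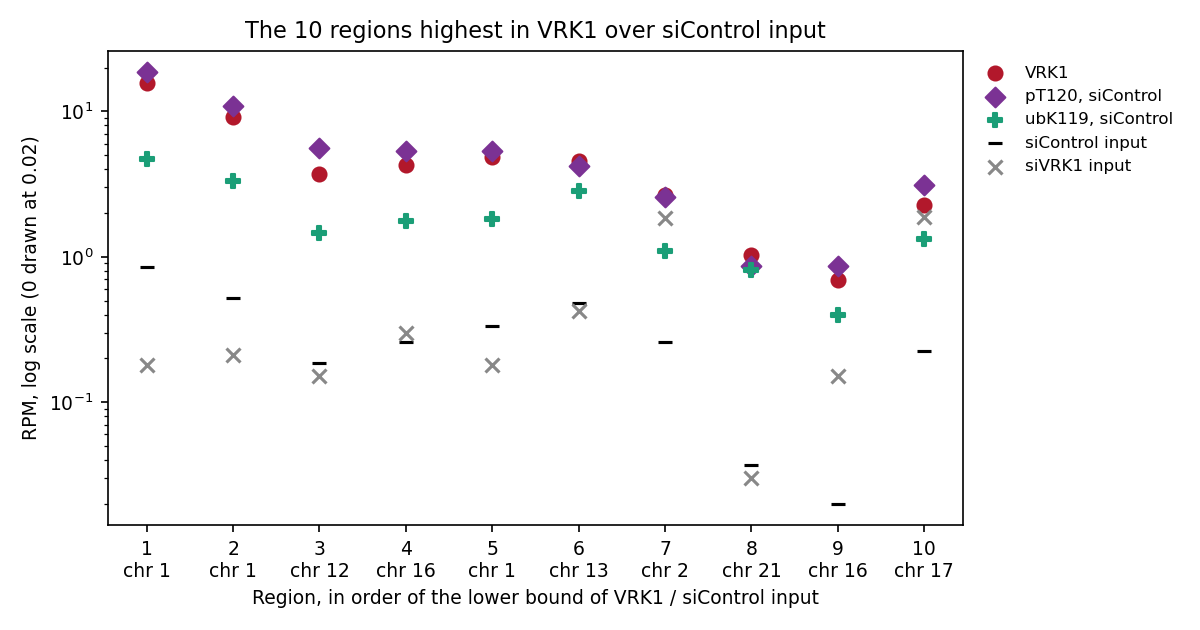
Level in RPM (y axis, log scale, 0 drawn at 0.02) of VRK1, siControl pT120, siControl ubK119, siControl input and siVRK1 input in the 10 regions highest in VRK1 over siControl input (x axis, with the chromosome of each). The ratio of VRK1 to siControl pT120 lies between 0.657 and 1.18 in these regions. In the seventh and the tenth region the siVRK1 input lies at 1.83 and 1.86 RPM, near the VRK1 level. The H2A libraries of siVRK1 cells are not drawn.

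Regions far below input were fewer. The lowest, chr13:110076445-110076839, had 4 reads of VRK1, 47 of siControl input and 37 of siVRK1 input, a ratio of 0.0714 (0.0187 to 0.195). On chromosome 5 a pair lay within a few kb of each other. The first, chr5:134259424-134259834, had 20 VRK1 reads, 74 of siControl input and 95 of siVRK1 input, a ratio of 0.227 (0.131 to 0.376). The other, chr5:134260172-134260419, had 10, 63 and 79 reads and a ratio of 0.133 (0.0609 to 0.261).

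The other lowest regions were on chromosomes 7, 11 and 6. In chr7:145694276-145694664 VRK1 had 5 reads against 39 of siControl input and 32 of siVRK1 input, a ratio of 0.108 (0.0331 to 0.273). In chr11:10530709-10531179 it had 7 against 40 and 67, a ratio of 0.147 (0.0555 to 0.331). These 5 regions were below both inputs, with upper bounds over the siVRK1 input of 0.419 or less, and all overlap peaks of both inputs. The sixth, chr6:115577021-115577227, had 11 VRK1 reads against 60 of siControl input but only 6 of siVRK1 input, so that its ratio turned from 0.154 (0.0729 to 0.295) to 1.90 (0.645 to 6.27).

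The 4 longest distinct regions, each over 2.8 kb, lay on both sides of input. The longest, chr18:9207086-9210276, had 55 VRK1 reads, 72 of siControl input and 77 of siVRK1 input, a ratio of 0.641 (0.443 to 0.924). Near it, chr18:9341313-9344149 had 86, 95 and 93 reads, a ratio of 0.760 (0.561 to 1.03). On chromosome 5, chr5:956127-958976 had 120, 42 and 92 reads, a ratio of 2.40 (1.67 to 3.49) over siControl input and 1.35 (1.02 to 1.796) over siVRK1 input. On chromosome 1, chr1:113057344-113060215 had 102, 66 and 90 reads and a ratio of 1.30 (0.943 to 1.796), within counting error of 1.

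By chromosome, the distinct regions had ratios above 1 over the siControl input on 17 of 22 chromosomes. The highest were chromosome 17 at 1.30 (1.27 to 1.33), chromosome 15 at 1.23 (1.14 to 1.32) and chromosome 19 at 1.22 (1.19 to 1.26). The lowest were chromosome 18 at 0.953 (0.945 to 0.962), chromosome 3 at 0.971 (0.963 to 0.980) and chromosome 13 at 0.972 (0.958 to 0.987). Over the siVRK1 input 0 of 22 chromosomes were above 1, but these regions include those chosen in that library. Without them 12 of 22 were above 1 and 15 of 22 over the siControl input.

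The inputs differed by chromosome as well, in the regions of the antibody lists. On chromosome 17 VRK1 stood at 1.31 over the siControl input and 1.04 (1.02 to 1.06) over the siVRK1 input, while the inputs had a ratio of 1.26. On chromosome 1 these values were 1.18, 1.07 (1.05 to 1.09) and 1.10, and on chromosome 3 they were 0.941, 0.970 (0.961 to 0.980) and 0.970. The range over chromosomes was 0.941 to 1.31 over the siControl input and 0.946 to 1.07 over the siVRK1 input. Over both inputs, chromosomes 1, 5, 8, 11, 12, 17, 19 and 20 had intervals above 1 and chromosomes 3, 13 and 18 intervals below 1.

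**Figure D4:**
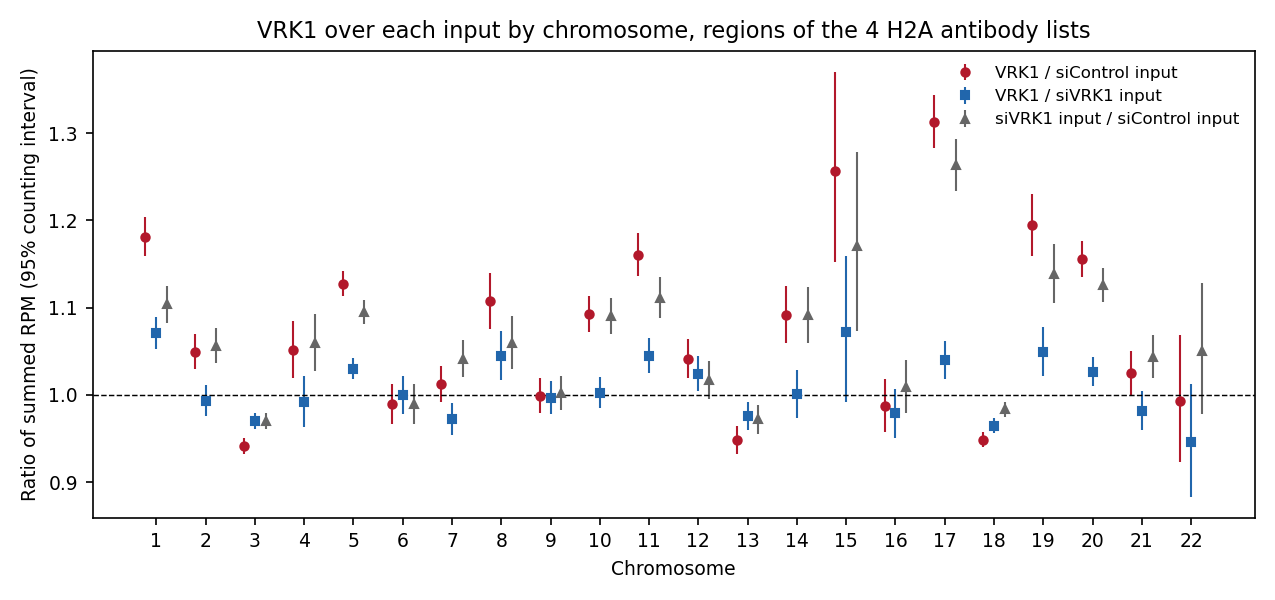
Ratio of summed RPM (y axis) by chromosome (x axis) in the distinct regions of the 4 H2A antibody lists: VRK1 over siControl input (red circles), VRK1 over siVRK1 input (blue squares) and siVRK1 input over siControl input (grey triangles), with 95% counting intervals. The red circles span 0.941 to 1.31 and the blue squares 0.946 to 1.07, and the grey triangles 0.970 to 1.26.

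In windows of 5 Mb with at least 30 distinct regions, the median ratio was 1.01, and 237 of 455 windows were above 1. Several of the highest windows rest on 1 region. Chromosome 1 from 165 to 170 Mb had a ratio of 4.48 (3.70 to 5.45), which dropped to 1.47 (1.15 to 1.89) without its leading region, and over the siVRK1 input the ratio was 3.53 with that region and 0.979 (0.796 to 1.20) without it. Chromosome 16 from 0 to 5 Mb had 2.21 (1.86 to 2.63), or 1.66 (1.38 to 1.99) without its leading region and then 0.929 over the siVRK1 input. Chromosome 1 from 205 to 210 Mb had 2.16 (1.75 to 2.68), or 1.19 (0.927 to 1.52) without its leading region and then 0.717 (0.583 to 0.881) over the siVRK1 input. The first 5 Mb of chromosome 1, with 366 regions, had 1.71 (1.61 to 1.82) over the siControl input and 1.0006 (0.953 to 1.05) over the siVRK1 input.

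The lowest window was chromosome 6 from 65 to 70 Mb at 0.600 (0.455 to 0.790), with 0.695 (0.528 to 0.910) over the siVRK1 input. It was followed by chromosome 12 from 80 to 85 Mb at 0.613 (0.483 to 0.775), chromosome 6 from 140 to 145 Mb at 0.668 (0.536 to 0.831) and chromosome 7 from 15 to 20 Mb at 0.688 (0.558 to 0.848). VRK1 in these windows was 0.245 to 0.339 RPM per kb, against 0.408 to 0.493 RPM per kb of siControl input. Windows hold the regions chosen as peaks of the siVRK1 input as well, which favours low ratios over that input, and 16 of the 455 were above 1 over it. Intervals above 1 over both inputs were found in 5 windows: the 3 highest, chromosome 5 from 0 to 5 Mb, at 1.45 (1.42 to 1.48) and 1.04 (1.02 to 1.06) with 2079 regions, and chromosome 3 from 80 to 85 Mb, at 1.38 (1.10 to 1.72) and 1.37 (1.11 to 1.70).

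By length and by the number of lists that share a region, levels differed more than ratios did. Both had a part in the choice of regions, since the longest of overlapping regions was kept. Regions of 200 bp to under 300 bp held 0.698 RPM per kb of VRK1 and 0.671 of siControl input, a ratio of 1.04 (1.04 to 1.05). Regions of 1000 bp or more held 1.34 RPM per kb of VRK1 and 1.35 of siControl input, a ratio of 0.996 (0.984 to 1.01). None was under 200 bp. Regions called in 1 of the 5 lists held 0.708 RPM per kb of VRK1 and 0.676 of siControl input, and the 692 regions called in all 5 held 2.17 of each, with a ratio of 0.998 (0.983 to 1.01). The level of both libraries climbed together from regions of 1 list to those of all 5. Regions in all 5 lists are by definition also peaks of the siVRK1 input, which favours a high input level there.

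Regions called in 1 list only differed by list. Those of siVRK1 ubK119 alone had a ratio of 1.41 (1.397 to 1.43) over siControl input and 1.08 over siVRK1 input, and those of siVRK1 pT120 alone 0.810 (0.803 to 0.816) and 0.938. Regions that touch no peak of either input gave wider differences than regions that do. Outside input peaks the ratio was 1.51 (1.49 to 1.52) for siVRK1 ubK119, 1.33 (1.31 to 1.36) for siControl pT120, 1.17 (1.16 to 1.18) for siControl ubK119 and 0.835 (0.828 to 0.841) for siVRK1 pT120. Over the siVRK1 input these were 1.12, 1.15, 1.07 and 0.953. In input peaks the ratios were 1.098 (1.09 to 1.11), 1.04 (1.03 to 1.05), 0.978 (0.970 to 0.987) and 0.909 (0.901 to 0.917) in the same order. Leaving out input peaks keeps regions where the inputs are low, which favours a higher ratio.

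Regions that overlap a VRK1 peak are those where VRK1 itself was high enough to be called, so their levels are given as a description. In the siControl pT120 list 2572 of 5979 regions did, with 2.67 RPM per kb of VRK1 and 2.41 of siControl input, a ratio of 1.11 (1.098 to 1.12). The 3407 others held 1.01 and 0.970 RPM per kb, a ratio of 1.04 (1.02 to 1.06). In the siVRK1 ubK119 list the regions without a VRK1 peak had the higher ratio, 1.34 (1.32 to 1.35) against 1.21 (1.198 to 1.22) with one. In all 5 lists the siControl input, too, was higher per kb in regions with a VRK1 peak than in those without.

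Within regions called with the ubK119 antibody, VRK1 was higher where pT120 was higher, and both inputs were as well. Among the siVRK1 ubK119 regions, split into 5 equal groups by siControl pT120 reads per kb, VRK1 was 0.906, 0.960, 1.07, 1.29 and 2.41 RPM per kb from the lowest to the highest group. The siControl input was 0.640, 0.684, 0.744, 0.974 and 2.14 RPM per kb, and the siVRK1 input 0.862, 0.919, 1.03, 1.24 and 2.33. The ratio of VRK1 to siControl input was 1.42 (1.38 to 1.45) in the lowest group and 1.13 (1.11 to 1.14) in the highest, and over the siVRK1 input 1.05 and 1.04. The level over input was thus no higher in the regions with most pT120 reads.

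In siControl ubK119 regions VRK1 was 0.618 RPM per kb in the lowest and 1.73 in the highest group by pT120, and siControl input 0.585 and 1.65. The ratio was 1.06 (1.04 to 1.08) in the lowest group, 1.13 (1.12 to 1.15) in the middle one and 1.05 (1.04 to 1.06) in the highest. In siVRK1 input regions it was 1.08 (1.06 to 1.10) in the lowest and 1.05 (1.04 to 1.06) in the highest. Split by siControl ubK119 reads, the siControl pT120 regions had a ratio of 1.22 (1.18 to 1.26) in the lowest and 1.04 (1.02 to 1.05) in the highest group, whereas the siVRK1 pT120 regions had 0.758 (0.744 to 0.773) and 0.933 (0.925 to 0.940).

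**Figure D5:**
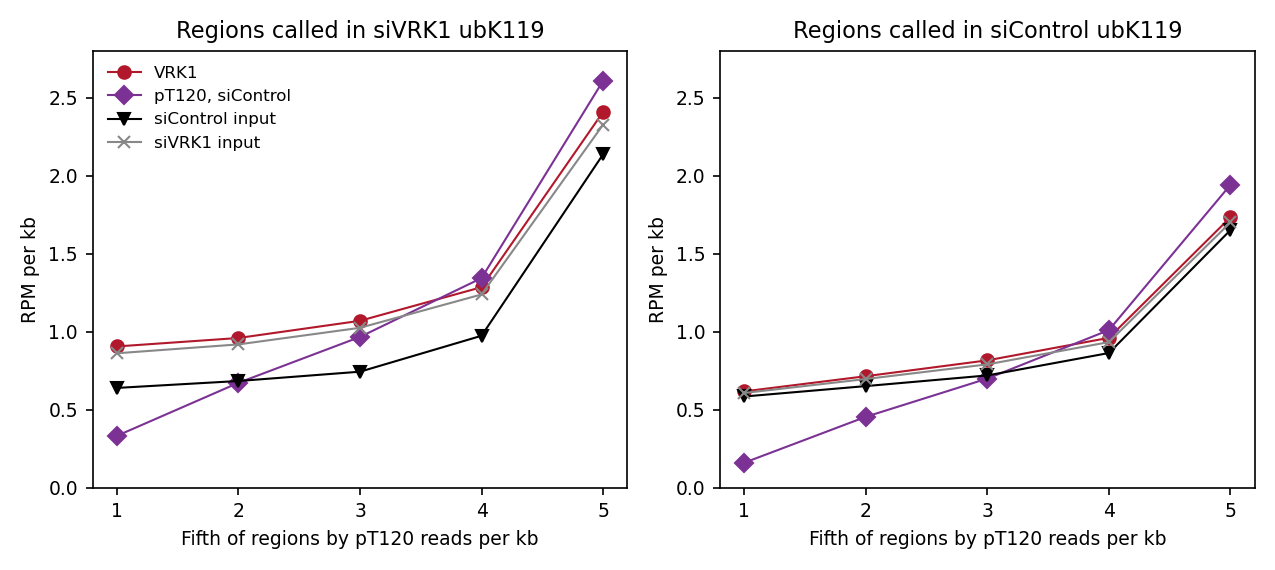
Level in RPM per kb (y axis) of VRK1, siControl pT120, siControl input and siVRK1 input in 5 equal groups of regions ranked on siControl pT120 reads per kb (x axis, lowest to highest), in regions called with the ubK119 antibody in siVRK1 cells (left) and siControl cells (right). VRK1 and both inputs climb together, and in siVRK1 ubK119 regions VRK1 reaches 2.41 RPM per kb in the highest group, beside 2.14 of siControl input and 2.33 of siVRK1 input.

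The H2A antibodies of siControl cells were set beside VRK1 over the shared siControl input, in lists that neither mark of the comparison chose in the same cells. In siVRK1 ubK119 regions VRK1 stood at 1.27 times input, pT120 at 1.16 (1.15 to 1.17) and ubK119 at 1.025 (1.02 to 1.03). In siVRK1 pT120 regions VRK1 stood at 0.865, pT120 at 0.880 (0.875 to 0.886) and ubK119 at 1.03 (1.03 to 1.04). In siVRK1 input regions the values were 1.07, 0.991 (0.984 to 0.997) and 0.753 (0.748 to 0.757). The direct ratio of VRK1 to pT120, which needs no input, was 1.09 (1.08 to 1.10), 0.983 (0.977 to 0.989) and 1.08 (1.07 to 1.09) in these lists, and that of VRK1 to ubK119 was 1.24 (1.23 to 1.25), 0.838 (0.833 to 0.842) and 1.42 (1.41 to 1.43). VRK1 was thus nearer to pT120 than to ubK119 in all 3. Over the siVRK1 input VRK1 stood at 1.04 in siVRK1 ubK119 regions, nearer than over pT120. In siVRK1 pT120 regions it stood at 0.960 over that input, less near than over pT120. In siVRK1 input regions VRK1 stood at 1.07 over the siControl input and 1.08 over pT120, so that input was about as near. In the lists that the marks chose themselves, pT120 stood at 1.63 (1.61 to 1.64) in its siControl regions, where VRK1 stood at 1.09, and ubK119 at 1.87 (1.86 to 1.88) in its own, where VRK1 stood at 1.08.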

How the data were processed

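Chromatin immunoprecipitation sequencing of 7 libraries from HT1080 cells was used, 1 per condition. Reads were processed with CASAVA 1.8.2, aligned with Bowtie 0.12.8 to hg19 and analysed with Partek, per the submitters' processing notes. No source used here gives the duplicate handling or the peak settings. Per the file headers, the authors deposited for each peak of each library its coordinates, its height as a signal, its height as RPM, percent overlaps with peaks of other libraries and the count of reads of every library in the region. Library totals were computed as height divided by height in RPM.

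Regions of 5 lists on chromosomes 1 to 22 with at most 100 reads in each input were kept; overlapping regions (at least 1 bp) were merged to the longest. Ratios of summed RPM carry exact conditional binomial 95% intervals and shares exact Clopper-Pearson 95% intervals, both covering counting error only. A region was called at 2-fold or more with at least 20 reads in the compared libraries, a count of 0 being set to a floor of 3. The named regions are the 10 with the highest lower bound, the 6 with the lowest upper bound and the 4 longest, with the 4 highest of each list, 4 windows and 3 chromosomes at each end. With 1 library a side no test was possible. Ratio intervals were tested on simulated data. The deposited overlaps were checked against the coordinates, and 0 of 314456 differed. Alternatives were the other input, other limits, folds and read minimums, peaks left out and another scaling. The regions and lists were chosen with earlier results of these data known. Python 3.11.15, numpy 2.4.6, pandas 2.3.3, scipy 1.17.1 and matplotlib 3.10.9 were used.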

Additional observations from a re-analysis of the deposited data

Results flagged for a closer look

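Regions on chromosome Y were outside the comparison, which used chromosomes 1 to 22. In 313 regions there, the ratio of VRK1 to siControl input was 1.12 (1.08 to 1.15) and that to siVRK1 input 1.003 (0.975 to 1.03), while the ratio of siVRK1 input to siControl input was 1.11 (1.08 to 1.15). The signal over the siControl input was thus not found over the siVRK1 input. On chromosome X, 104 regions had ratios of 0.969 (0.916 to 1.03) and 1.07 (1.01 to 1.13).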

How the results depend on the processing

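With 1 library a side, no interval covers variation between cultures, and the choice of input decided more than counting error did. No paired analysis was possible because the labels carry no replicate numbers and each group has 1 library. With the siVRK1 input the ratios were 1.02 (siControl pT120), 1.02 (siControl ubK119), 0.960 (siVRK1 pT120), 1.04 (siVRK1 ubK119), 0.654 (siVRK1 input) and 0.854 (distinct), with 0 chromosomes above 1. With both inputs pooled they were, in the same order of lists, 1.05, 1.05, 0.915, 1.13, 0.791 and 0.931. With at most 50 input reads they were 1.11, 1.09, 0.860, 1.31, 1.08 and 1.05. With no limit they were 0.926, 0.964, 1.0 (siVRK1 ubK119), 0.962 (siVRK1 input) and 0.990 (distinct). Without input peaks they were 1.33, 1.17, 0.835, 1.51 and, for distinct regions, 1.06; without VRK1 peaks 1.04, 1.06, 0.798, 1.34, 1.03 and 1.01. Scaled to the siVRK1 input regions they were 1.02, 1.01, 0.809, 1.19 and, for distinct regions, 0.980. Without chromosomes 3, 5 and 18, an alternative added after seeing the data like the pooled inputs and the antibody lists alone, they were 1.11, 1.12, 0.878, 1.28, 1.10 and 1.09. The antibody lists alone gave 1.03, and 0.998 with the siVRK1 input. Distinct regions at least 2-fold higher and lower numbered 595 and 4261 with the siVRK1 input, 784 and 99 without input peaks, 816 and 229 without chromosomes 3, 5 and 18, and 259 and 181 over both inputs; without VRK1 peaks 590 were higher. They numbered 3107 and 1705 at 1.5-fold, 453 and 84 at 3-fold, 7620 and 4101 with at least 10 reads, and 245 and 89 with at least 40. The main setting gave 1437 and 512 of 12801 tested regions. Distinct regions include those chosen as peaks of the siVRK1 input, which favours low ratios and lower calls over that input. Over the antibody lists alone, 608 were higher and 508 lower than the siVRK1 input, of 12916 tested. The number tested changes with the input, the regions left out and the read minimum, so these counts cannot be compared as shares. The causes of these shifts were not tested. The median region had 5 VRK1 and 4 input reads, so most single regions could not be tested.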
